A study of Psophocarpus tetragonolobus with 12 samples.

Results

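A group of 102 winged bean genes had high transcript abundance in young pods, at Day 15 after anthesis, and at least 8 times less at Day 30. They were chosen from the deposited values alone: a Day 15 value of 20 FPKM or more, and a Day 15 value plus 1 that was at least 8 times the Day 30 value plus 1. FPKM is the number of fragments assigned to a gene, scaled to its length and to the mapped fragments of the library, so it is a level relative to the other transcripts of the same pods. Of 30392 genes in the table, 7645 reached 20 FPKM at Day 15, and the 102 members were 1.33% of these. Because the rule used Day 15 and Day 30, the values of these 2 stages are described here and nothing is drawn from the difference between them. The values at Day 37 and Day 45 did not enter the rule.

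The pods came from a single line, FP15, the purple-podded maternal parent of the study's mapping cross, grown in a controlled chamber. They were collected 15, 30, 37 and 45 days after anthesis (Day 15 to Day 45), and every stage was represented by 3 polyA libraries from separate plants, which makes 12 in total, with no treatment, mutant or control group. Each gene has a single deposited number per stage, a rounded whole number. The spread between plants is therefore unknown for every value below, no difference between stages could be tested, and read depth is unknown from the table. Rounding alone leaves an uncertainty of 0.5 FPKM, and a listed 0 stands for anything below 0.5 FPKM. In bulk pod tissue, fewer cells of a type and less RNA per cell cannot be told apart. The paper mentions sampling of pod and seed tissues and reports expression in pod tissues, so the part of seed in the libraries is unknown.

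A legume pod wall first grows by cell division and expansion around the ovules, then stops elongating, lays down secondary walls and dries while the seeds fill. Genes needed only for the early, growing phase are commonly expressed for a short window of pod development, and their transcripts disappear as new transcription ends and existing mRNA is degraded. The functions of most of the 102 genes cannot be given, because the table pairs gene identifiers with positions and not with names. Only 1 of the 102 is on the study's lists of seed protein and anthocyanin genes, the lists that were read for names here. The genes are therefore ordered here by level, by how low they stood later and by position.

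The members started from widely different levels. At Day 15 they ranged from 20 to 2657 FPKM with a median of 67.5 FPKM. Of the 102, 41 lay between 20 and 50 FPKM, 23 between 50 and 100 FPKM and 38 at 100 FPKM or more. The lowest-level class was the largest in number and carried 6.25% of the members' summed FPKM at Day 15, while the 38 genes at 100 FPKM or more carried 85.8%. At Day 45, 0 of the 102 were among the 1000 most abundant genes of the whole table, against 35 at Day 15, of which 10 were among the first 100.

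The most abundant member was Psote06G0101900 (Chr06.2, 1263410 to 1265967), with values of 2657, 188, 103 and 43 FPKM over the 4 stages from Day 15 to Day 45. It ranked 3558 among all genes at Day 45, against 15 at Day 15. Psote03G0128700 (Chr03.1, 24765399 to 24768825) had 1624, 62, 36 and 6 FPKM over these stages, a log2(FPKM+1) change of -7.86 from Day 15 to Day 45. Its rank was 13904 at Day 45, against 20 at Day 15. Both genes thus ranked near the top of the table in the young pod, and the second had dropped out of the upper part of the ranking by Day 45.

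The next genes by level did not all reach the same depth. Psote02G0063500 (Chr02.1, 22048928 to 22049866) was at 1570, 177, 120 and 71 FPKM over the stages. Psote07G0186000 (Chr07.2, 14545784 to 14561029) was at 1319, 106, 84 and 77 FPKM over the same stages, and so was almost level between Day 37 and Day 45. These 2 genes had the highest values of all members at Day 45 and kept 4.52% and 5.84% of their Day 15 values. With Psote06G0101900 (43 FPKM) and Psote02G0221600 (525, 64, 57 and 42 FPKM over the 4 stages), they were the 4 members that stood at Day 45 above 37 FPKM, the median of all 7645 genes at 20 FPKM or more at Day 15. The description "switched off" therefore applies to these 4 only as a large decrease.

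The remaining 6 of the 10 most abundant members ended lower. Psote05G0122900 (Chr05.1, 18775981 to 18776289), a gene model of 309 bp and the shortest of the members, was at 800, 23, 11 and 2 FPKM over the 4 stages. Psote08G0049100 (Chr08.1, 5405482 to 5406801) was at 755, 11, 11 and 4 FPKM, level between Day 30 and Day 37. Of the other 4, Psote03G0255500 was at 763, 55, 33 and 9 FPKM, Psote03G0240500 was at 629, 37, 21 and 3 FPKM, and Psote06G0024800 was at 584, 69, 40 and 19 FPKM. Psote01G0211200 (Chr01.4, 331805 to 340894) was at 606, 60, 37 and 2 FPKM, so that its lowest step came after Day 37. At Day 30 these 6 genes spanned 11 to 69 FPKM, and by Day 45 they spanned 2 to 19 FPKM.

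**Figure D1:**
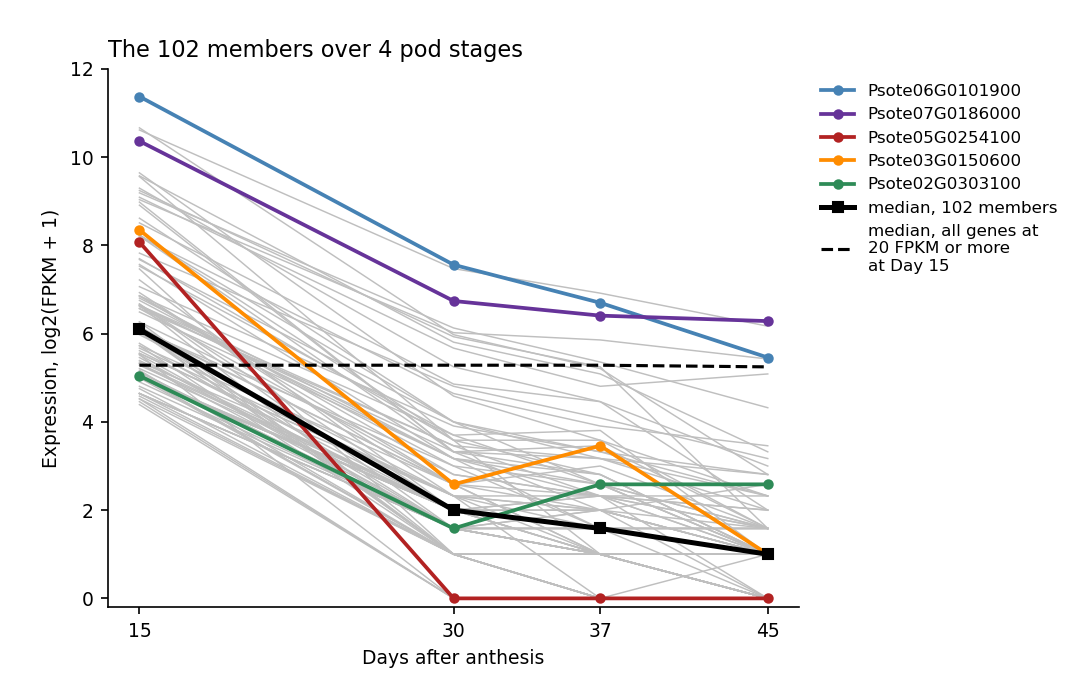
Expression of the 102 members, as log2(FPKM + 1) on the vertical axis against days after anthesis, with 1 value per gene and stage and no error bars because no values per library were analysed. Each grey line is 1 gene, the coloured lines are 5 genes named in the text, the solid black line is the median of the members (67.5, 3, 2 and 1 FPKM) and the dashed line is the median of the 7645 genes at 20 FPKM or more at Day 15 (38, 38, 38 and 37 FPKM).

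The low level at Day 30 was kept or deepened in nearly all members. At Day 37, 97 of the 102 were still at least 8 times lower than at Day 15, and at Day 45, 100 of the 102 were. Among all 7645 genes at 20 FPKM or more at Day 15, the same was true of 176 genes (2.30%) at Day 37 and of 339 genes (4.43%) at Day 45. At both stages, 96 of the 102 members met this limit, against 175 of the 7645 genes (2.29%). The members are included in these totals, and since their Day 15 values chose them, the counts are a description with no test. Over the 3 later stages the median of the members was 3, 2 and 1 FPKM, and the median share of a member's own Day 15 value was 6.25%, 3.46% and 0.962%. The median of the 7645 genes was 97.4%, 96.4% and 94.1% of the Day 15 value at the same stages.

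Depth is best read from the number of genes that reached the floor of the table. At Day 30, 5 members were listed at 0 and 15 at 1 FPKM, while 14 were still at 20 FPKM or more. At Day 37, 16 were listed at 0 and 22 at 1 FPKM. At Day 45, 34 were listed at 0 and 31 at 1 FPKM, and 5 were at 20 FPKM or more. Among all 7645 genes, 16 were listed at 0 at Day 37 (0.209%) and 47 at Day 45 (0.615%), so that each gene of this level at 0 at Day 37 was a member, and 13 of the 47 at Day 45 were not. Most of the members thus stood at or near 0 by Day 45, and 68 of the 102 were still listed at 1 FPKM or more.

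**Figure D2:**
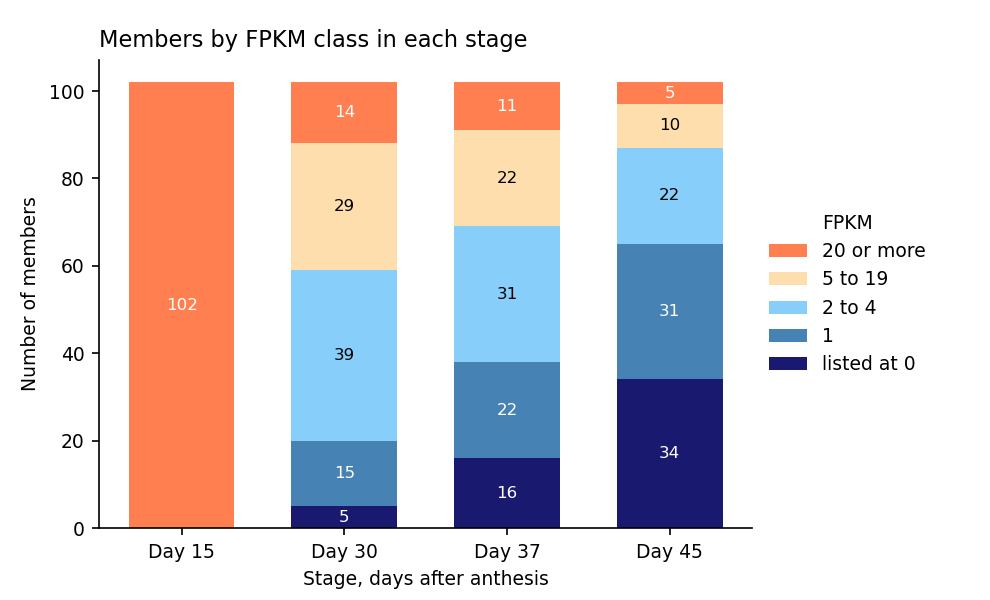
Number of members (vertical axis, stacked to 102) in 5 FPKM classes at each stage (horizontal axis). The class listed at 0 holds 5 genes at Day 30, 16 at Day 37 and 34 at Day 45, and the class at 20 FPKM or more holds 14, 11 and 5 genes at these stages.

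Of the members, 5 were listed at 0 in all 3 later stages. The most abundant was Psote05G0254100 (Chr05.3, 9129912 to 9130298), a gene model of 387 bp at 269 FPKM at Day 15, rank 293 of all genes. The other 4 started lower: Psote05G0173000 (Chr05.2, 5487318 to 5487656) at 45 FPKM, Psote06G0106800 (Chr06.2, 2106047 to 2107062) at 22 FPKM, Psote05G0240800 (Chr05.3, 6422295 to 6430722) at 21 FPKM and Psote01G0189500 (Chr01.2, 1611541 to 1611897) at 20 FPKM. A further gene with a fast course was Psote02G0304700 (Chr02.5, 22623840 to 22626100), at 176, 1, 0 and 0 FPKM over the 4 stages. For genes listed at 0 no fold change is given, since the true value below 0.5 FPKM is unknown.

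Other members that ended at 1 or 2 FPKM took different courses. Psote08G0102000 (Chr08.1, 12337399 to 12340116) was at 392, 15, 5 and 1 FPKM over the 4 stages, lower at each step. Psote09G0143200 (Chr09.4, 13699009 to 13706627) was at 302, 11, 1 and 1 FPKM, level from Day 37, and Psote06G0303900 (Chr06.4, 18523965 to 18524785) was at 505, 9, 10 and 2 FPKM. In all, 27 members had a log2(FPKM+1) change of -6 or lower from Day 15 to Day 45, a count that depends on the added 1 for genes listed at 0. For 50 members each later stage was lower than the one before, and 89 had no later stage above the one before. At low values a step of 1 FPKM can come from rounding, so the 25 members with at least 10 FPKM at Day 30 show the course more clearly. Of these, 21 were lower at each later step, and their median at Day 45 was 25% of the Day 30 value, against 96.6% for the other 7348 genes that had at least 10 FPKM at Day 30 and had reached 20 FPKM at Day 15.

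Exceptions to a lasting decrease were few and small in FPKM. Compared with Day 30, 73 members were lower at Day 37, 19 were equal and 10 were higher, and 92 were lower at Day 45, 8 equal and 2 higher. Among all 7645 genes, the Day 37 value was below that of Day 30 in 48.5% and above it in 42.5%. The Day 45 value was below that of Day 30 in 55.2% and above it in 39.1%. The 2 members that were higher at Day 45 than at Day 30 were also those that were no longer 8 times below Day 15 at Day 45. Psote02G0303100 (Chr02.5, 22345373 to 22355124) was at 32, 2, 5 and 5 FPKM over the 4 stages, and its Day 45 value was 15.6% of its Day 15 value, the highest of any member. Psote03G0179300 (Chr03.1, 36366920 to 36374669) was at 46, 4, 3 and 5 FPKM. Both thus ended at 5 FPKM. Rounding can account for a difference of at most 1 FPKM, so it could produce the step of Psote03G0179300 above Day 30 but not that of Psote02G0303100.

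At Day 37, the 5 members past the limit at Day 30 but not at Day 37 had between 4 and 7 FPKM. Besides Psote02G0303100 these were Psote02G0374300 (34, 2, 5 and 1 FPKM over the 4 stages), Psote03G0020900 (52, 5, 7 and 2 FPKM), Psote02G0242800 (32, 3, 4 and 2 FPKM) and Psote08G0026500 (31, 3, 4 and 0 FPKM). All 4 were past the limit again at Day 45. The largest transient step among abundant members was in Psote03G0150600 (Chr03.1, 30323884 to 30325641), at 326, 5, 10 and 1 FPKM over the stages. From Day 37 to Day 45, 3 members were higher, of which Psote06G0444600 (Chr06.4, 33771696 to 33772984) had the most transcript, at 545, 50, 27 and 33 FPKM. These members were chosen for mention after their values were seen.

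The limit of 8 times is a line across a continuous range. Exactly on it stood 4 members, each with 3 FPKM at Day 30, against 31 FPKM at Day 15, among them Psote04G0281500, Psote06G0104500 and Psote06G0369900. Just outside it were Psote04G0091500 at 4 FPKM, against 38 FPKM at Day 15, a ratio of 7.80, and Psote02G0018600 and Psote03G0319300, each at 3 FPKM, against 30 FPKM at Day 15, a ratio of 7.75. These 3 genes outside it were at 3, 2 and 2 FPKM at Day 37 and at 2, 1 and 1 FPKM at Day 45, close to the members beside them. A further 177 genes were between 4 and 8 times lower at Day 30, and 137 of them (77.4%) were past 8 times lower by Day 45. In all, 239 genes passed the limit at Day 45 and not at Day 30. Their median was 55, 13, 7 and 3 FPKM over the 4 stages, so that the members differ from these genes by when the limit was crossed, which the rule fixed.

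In abundance, the members together were lower by 19939 FPKM at Day 30 than at Day 15. The rule required a decrease between these stages, so this amount and its share below are a description. Their summed FPKM over the 4 stages was 21289, 1350, 869 and 434. As a share of the summed FPKM of all genes this was 3.0%, 0.173%, 0.109% and 0.0575%. The 3914 genes at 20 FPKM or more at Day 15 that had a lower value at Day 30 together were lower by 120054 FPKM, of which the members made up 16.6%. At Day 45 the members retained 2.04% of their summed Day 15 abundance. The Day 15 sum was concentrated in few genes: the 4 most abundant carried 33.7% of it, the first 10 carried 53.1% and the first 20 carried 72.1%. At Day 45 the same 4 genes had 197 of the 434 FPKM left.

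**Figure D3:**
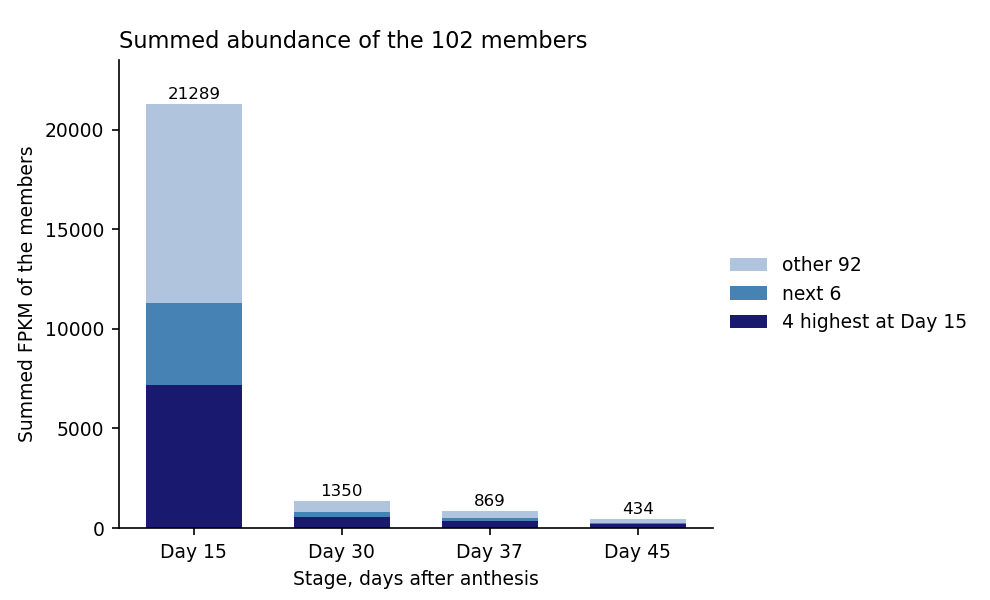
Summed FPKM of the members (vertical axis, from 0) at each stage, split into the 4 genes with the highest Day 15 values, the next 6 and the other 92. The bars stand at 21289, 1350, 869 and 434 FPKM, and the 4 highest genes contribute 197 FPKM at Day 45, against 7170 FPKM at Day 15.

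The summed share kept at Day 30, which the rule limits, was alike across starting levels, and the shares at Day 45 lay further apart. The members at 100 FPKM or more at Day 15 together kept 6.38% of their sum at Day 30, 4.07% at Day 37 and 2.05% at Day 45. Those between 50 and 100 FPKM together kept 6.0%, 3.47% and 1.35%, and those between 20 and 50 FPKM kept 6.24%, 4.96% and 2.78%. At Day 45, 4 of the 38 most abundant members, 11 of the 23 in the middle class and 19 of the 41 in the lowest class were listed at 0. The median share of a gene's own Day 15 value at Day 45 was 0.885% in the highest class, 1.12% in the middle class and 2.5% in the lowest class, where 1 FPKM is already a larger share. A listed 0 is reached sooner from a low starting value, so these last counts cannot be compared between the classes.

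The gene models of the members were shorter at the median than those of the 7645 genes at 20 FPKM or more at Day 15. They were also more often under 1000 bp, a description with no test. The 7645 genes share the Day 15 minimum but were not matched to the members in level. Their Day 15 median was 38 FPKM, against 67.5 FPKM for the members, and the part of level in the difference was not tested. Against the whole table, the members' share of very short models was similar. Their median span from first to last base was 2523 bp, against 3585 bp for the 7645 genes at 20 FPKM or more at Day 15 and 2904 bp for all genes. A span under 1000 bp was found for 22 members (21.6%), against 1095 of the 7645 genes (14.3%) and 21.1% of all genes. Spans under 500 bp were found for 8 members (7.84%), against 378 of the 7645 genes (4.94%) and 8.42% of all genes. The span includes introns, so it is not the length to which FPKM was scaled. FPKM of very short models also rests on few positions, and this part in the members' values was not tested.

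The members were spread over all 9 chromosomes, which the assembly divides into numbered super-scaffolds such as Chr05.1, and 1 member, PsoteG0025600 (148, 3, 1 and 0 FPKM over the 4 stages), lay on a scaffold with no chromosome. Chromosome 05 held 18 of them, chromosome 02 held 16 and chromosome 03 held 15. Relative to the genes at 20 FPKM or more at Day 15, the share ran from 0.889% on chromosome 04 (8 of 900) to 2.01% on chromosome 09 (8 of 398), around the 1.33% of the whole table. The 4 super-scaffolds with the most members were Chr05.1 with 13 of 429 genes (3.03%), Chr02.5 with 11 of 558 (1.97%), Chr03.1 with 8 of 547 (1.46%) and Chr09.4 with 6 of 255 (2.35%).

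Most members had no member nearby, and none formed a long tandem cluster under the rule as stated. The share with a member nearby was still above that of all 7645 genes, a description with no test. With starts at most 100 kb apart on the same super-scaffold counted as neighbours, 14 members (13.7%) fell into 7 pairs and the other 88 had no member within this distance. Of the 7645 genes, 264 (3.45%) had a member within it. The number of neighbours depends on the processing: it was 27 in 13 clusters with a pseudocount of 0.1, 23 in 11 clusters with the stages set to the same sum and also with a Day 15 minimum of 10 FPKM, and 6 in 3 when only genes next to each other counted. With the rule as stated and starts at most 100 kb apart, no run held more than 2 members. The 27 genes in 13 clusters and the 23 in 11 were not all pairs. A next gene in the table that was also a member was found for 6 members (5.88%), against 60 of the 7645 genes (0.785%). A next gene at 20 FPKM or more at Day 15 and at least 4 times lower at Day 30 was found for 16 members (15.7%), against 157 of the 7645 genes (2.05%), while 3.65% of the 7645 genes met this looser limit. Of the members, 9 overlapped another gene model, and 4 of the 6 next to a member overlapped that member. The share of overlapping models among all genes was not computed, so the count of 9 is not read as a trait of the members. In unstranded libraries, reads from the shared stretch of 2 overlapping genes cannot be told apart, and the part of this in the counts was not tested.

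Of the 7 pairs, 2 were overlapping models. Psote03G0128700 and Psote03G0128800 (Chr03.1, 24767664 to 24768188) are the pair with the highest levels, the second lying within the first. The first had the values given above, and Psote03G0128800 was at 296, 9, 6 and 1 FPKM over the 4 stages. On Chr01.5, Psote01G0283400 (7252833 to 7254641) was at 68, 5, 1 and 0 FPKM and Psote01G0283500 (7254164 to 7254566), again within the first, was at 62, 4, 0 and 0 FPKM. In both cases the 2 values may rest in part on the same fragments and are uncertain as separate genes. Another pair was adjacent without overlap. Psote03G0225700 (Chr03.3, 419090 to 423691) was at 52, 1, 0 and 0 FPKM, and Psote03G0225800 (Chr03.3, 423849 to 424175) was at 71, 1, 0 and 1 FPKM.

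The other 4 pairs had gene models between them. On Chr01.1, Psote01G0179200 (115, 5, 1 and 0 FPKM over the 4 stages) and Psote01G0179400 (36, 3, 2 and 2 FPKM) had starts 36.5 kb apart, and Psote01G0179300 between them was at 11, 2, 1 and 1 FPKM. Here the gene between shared the early peak at a lower level. On Chr08.1, Psote08G0026200 (121, 4, 4 and 4 FPKM) and Psote08G0026500 had starts 42.9 kb apart, and Psote08G0026400 between them was at 156, 154, 140 and 110 FPKM. On Chr09.4, Psote09G0144400 (364, 28, 21 and 7 FPKM) and Psote09G0145000 (294, 24, 14 and 10 FPKM) had starts 62.0 kb apart, and Psote09G0144600 between them was at 207, 125, 121 and 107 FPKM. In these 2 intervals a gene with a Day 15 level like that of the members stayed at 107 FPKM or more at every stage, so the decrease was not shared by every gene of the interval.

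**Figure D4:**
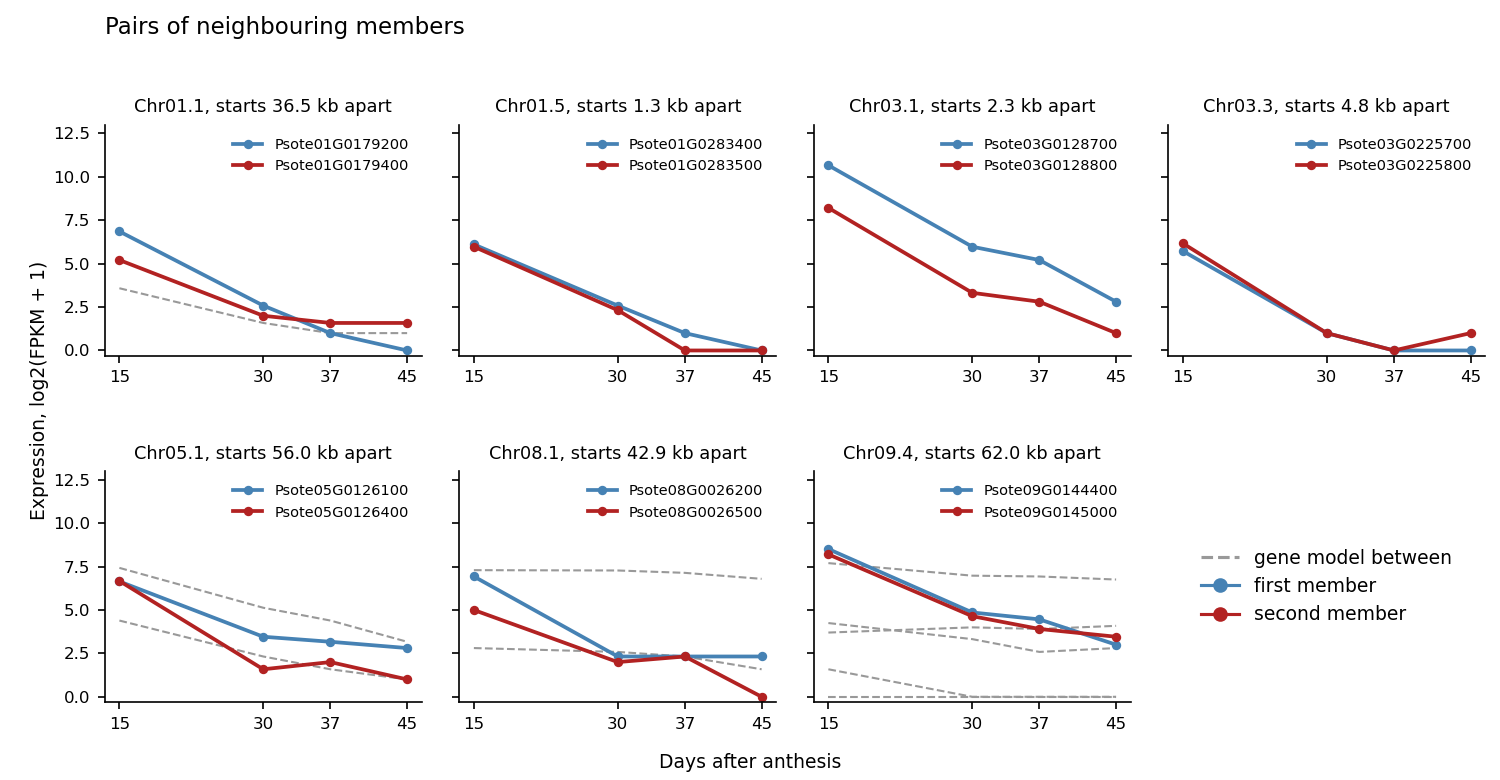
Expression as log2(FPKM + 1) (vertical axes) against days after anthesis (horizontal axes) for the 7 pairs of neighbouring members, in blue and red, with the gene models between them as dashed grey lines. On Chr08.1 and Chr09.4 a dashed line stays high (110 and 107 FPKM at Day 45) between members at 10 FPKM or less.

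The remaining pair lay in a stretch of Chr05.1 where other genes were also lower at Day 30, by different amounts. Psote05G0126100 (Chr05.1, 19703600 to 19704214) was at 99, 10, 8 and 6 FPKM over the 4 stages, and Psote05G0126400 (Chr05.1, 19759622 to 19768547) was at 101, 2, 3 and 1 FPKM. Between them, Psote05G0126200 was at 171, 34, 20 and 8 FPKM and Psote05G0126300 at 20, 4, 2 and 1 FPKM, both past 4 times lower at Day 30. With a limit of 4 times in place of 8, the pair became a run of 5 genes, the largest in the table, through Psote05G0125800 at 106, 13, 4 and 2 FPKM.

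On the same super-scaffold stood another member and the most abundant gene of the table. In the 13 gene models between Psote05G0125200 and Psote05G0126400, whose starts are 493 kb apart, 8 reached 20 FPKM at Day 15, of which 7 were at least 4 times lower at Day 30, including 3 members. The other member, Psote05G0125300 (Chr05.1, 19305646 to 19306272), was at 97, 9, 3 and 0 FPKM. The exception, Psote05G0125200 (Chr05.1, 19266124 to 19266819), ranked first at Day 15 and was at 9768, 13416, 7942 and 1492 FPKM. Psote05G0125400, rank 5 at Day 15, was at 3981, 949, 417 and 83 FPKM. Of the 8 genes, 6 had spans between 400 and 700 bp, and 3 other models of the stretch were listed at 0 at all stages. Whether these short models are related in sequence, and so share reads, was not tested. The stretch was chosen after its values were seen, and its counts are a description.

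**Figure D5:**
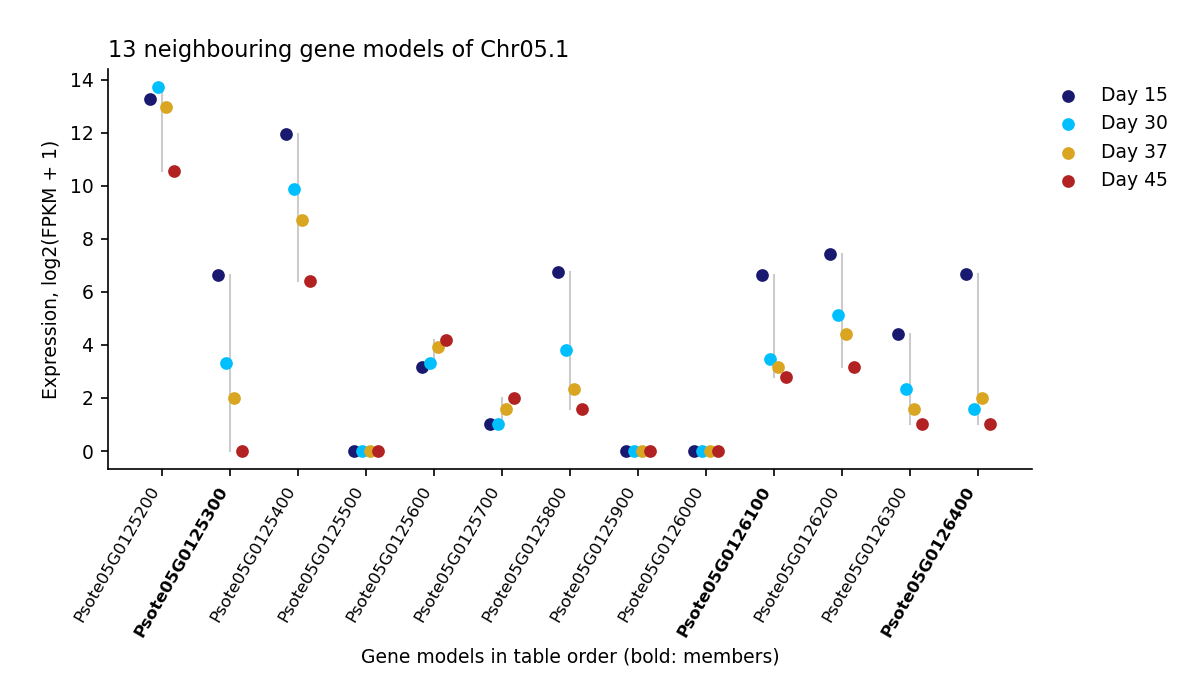
Expression as log2(FPKM + 1) (vertical axis) of 13 neighbouring gene models of Chr05.1 in table order (horizontal axis, not to scale), with 1 point per stage and members in bold. In 7 of the 8 genes at 20 FPKM or more at Day 15 the Day 30 point lies at least 4 times below Day 15, and Psote05G0125200 is the exception, with 13416 FPKM at Day 30, against 9768 FPKM at Day 15.

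Of the members, 1 is on the study's lists of storage protein genes, their transcription factors, candidates of the Chr03.1 seed protein interval and anthocyanin genes. Other gene lists of the study are not part of this count. Psote02G0319700 (Chr02.5, 25209756 to 25218919), listed as a basic 7S globulin, carries the name of a globulin known from soybean seeds. It was at 24, 2, 2 and 2 FPKM over the 4 stages, so that its level after Day 30 did not go lower. With the least favourable rounding it no longer met the rule, as was the case for 14 of the 102 members. The gene beside it on the same list, Psote02G0319600, was listed at 0 at all stages. The lists hold 418 genes of the table, of which 111 reached 20 FPKM at Day 15. Of these 111, 1 was a member, against 1.33% of all genes at this level. By list, the members numbered 1 of 6 globulins and legumins at this level, 0 of 2 albumins and 0 of 1 putative 2S albumin. They numbered 0 of 2 transcription factors tied to storage proteins and 0 of 81 genes of the anthocyanin table. Of the 21 genes at this level that the study listed as candidates in the Chr03.1 seed protein interval, 0 were members. That list does not hold every gene of the interval. The lists were drawn up by the study around seed protein and pigment, so they cover few of the genes that the rule could reach.

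The storage protein lists were also read as possible markers of seed tissue in the pods, a use that was not tested. The 51 albumins, globulins and putative 2S albumins summed to 791, 1134, 1214 and 1288 FPKM over the 4 stages, and 16 of them were listed at 0 throughout. This sum was higher at the later stages, and 1 gene carried the largest part of the difference. The putative 2S albumin Psote06G0099600 was at 382, 853, 840 and 786 FPKM. Without it the other genes summed to 409, 281, 374 and 502 FPKM, lower at Day 30 and Day 37 than at Day 15 but higher at Day 45. Their courses were mixed. On the list of globulins and legumins, Psote03G0078700 was at 148, 68, 48 and 12 FPKM, and Psote05G0226200 was at 31, 13, 51 and 114 FPKM. The part of seed tissue in the members' values was not tested.

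Of the 418 listed genes, 5 came near the rule. The anthocyanin table's Psote09G0032600, a homologue of UFGT, the enzyme that attaches glucose to anthocyanidins, was at 15, 1, 1 and 0 FPKM over the 4 stages and met the ratio of 8 but not the 20 FPKM. Psote09G0111300, a homologue of the glucosyltransferase UGT88A1, was at 34, 4, 4 and 2 FPKM. The albumin Psote06G0196400 was at 34, 4, 5 and 7 FPKM and so was higher at Day 45 than at Day 30. Psote01G0129700, a homologue of the transcription factor MYB15, was at 13, 1, 1 and 0 FPKM, and Psote07G0033000, a homologue of the ethylene response factor ERF034, was at 12, 1, 2 and 1 FPKM.

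Some members lie close to listed genes. The closest is Psote04G0139300 (99, 8, 5 and 2 FPKM over the 4 stages), which overlaps the listed globulin gene Psote04G0139200 (2, 0, 0 and 0 FPKM). Reads from the shared stretch may not be told apart, and the extent of the overlap was not measured. The other 3 were chosen because the listed gene had another course. Psote02G0304700 is 32 kb from Psote02G0304400, a homologue of the floral MADS-box gene AGAMOUS, which was at 148, 210, 226 and 199 FPKM over the 4 stages. Psote05G0095100, at 35, 1, 0 and 0 FPKM, is 64.4 kb from Psote05G0095400, a homologue of the Arabidopsis laccase gene IRX12 of lignin formation. That neighbour was at 1, 216, 169 and 74 FPKM, the opposite order between Day 15 and Day 30. Psote05G0098400 (Chr05.1, 14579701 to 14580015), at 481, 9, 8 and 3 FPKM, is 20.3 kb from a homologue of the MYB gene MYB114, which was at 1, 1, 0 and 0 FPKM. At Psote05G0098400 the listed gene was near the floor at all stages, so a decrease could not have been seen in it. The difference in course beside these 3 members follows from how they were chosen, and nothing is drawn from it. All were chosen after their values were seen.

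The members were also set against the seed storage protein QTL of the study's cross. The 5 intervals, each on 1 super-scaffold, held 862 genes at 20 FPKM or more at Day 15, and 11 of these were members (1.28%, against 1.33% of all genes at this level). The interval of qSSP-1 on Chr03.1 held 3 of 85, namely Psote03G0114200 (24, 2, 1 and 1 FPKM over the 4 stages) and the overlapping pair Psote03G0128700 and Psote03G0128800. The interval of qSSP-4 on Chr02.5 held 2 of 101, the basic 7S globulin gene and Psote02G0332500 (27, 2, 1 and 0 FPKM). The share of members inside these intervals was thus close to the background.

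Duplicate copies give another view of how far a course was shared. In the first 1998 pairs of the study's list of duplicated genes, which is only a part of that list, 12 pairs had a member. All 12 were listed as dispersed duplicates. The part read may not hold the tandem pairs, so it cannot show whether members have tandem copies. In 1 pair both genes were members: Psote01G0183100 (76, 1, 1 and 0 FPKM over the 4 stages) and Psote08G0102000, whose values are given above. In 4 pairs the other copy was listed at 0 at all stages, and in 7 pairs, these 4 included, it did not exceed 5 FPKM at any stage. For those members only 1 copy of the pair carried appreciable transcript at Day 15. Low values were common in the whole table: genes listed at 0 at Day 30 shared rank 20808 of 30392. The share of all duplicated genes with such a partner was not computed, so these counts are not read as particular to the members.

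In the other pairs the partner was expressed and its course differed or was slower. The member Psote01G0179400 has the partner Psote08G0108400, at 21, 74, 101 and 101 FPKM, which was higher at the later stages. Psote09G0087600, at 94, 5, 4 and 3 FPKM, has the partner Psote01G0077500, at 497, 502, 347 and 228 FPKM. Psote01G0222700, at 66, 1, 1 and 0 FPKM, has the nearby partner Psote01G0222500, at 138, 66, 24 and 10 FPKM, which was also lower at each later stage but more slowly. Psote01G0211200, with 606 FPKM at Day 15, has the partner Psote01G0210100 on the albumin list, at 14, 6, 13 and 4 FPKM. The pairs were named after their values were seen. The sources used here do not say how reads that match close copies were counted.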

How the data were processed

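RNA from FP15 pods was sequenced by the authors from unstranded polyA libraries (3 per stage, 12 in all). The submitters' processing notes name fastp, HISAT2 2.0.5 and featureCounts 1.5.0-p3. The deposited values are FPKM rounded by the authors to whole numbers, treated as a score on the FPKM scale, with 1 value per gene and stage and 0 columns of other samples. The sources used here do not say how the 3 libraries were merged into a stage value. Coordinates are those of the study's assembly, which is of the line Ma3. A RefSeq gene table of a different assembly matched 0 of the gene identifiers and was not used here.

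The rule, ratios of FPKM plus 1, shares of the stage sum, neighbours (starts at most 100 kb apart) and list counts were computed with Python 3.11.15, numpy 2.4.6 and pandas 2.3.3, and figures with matplotlib 3.10.9. The rule was tested on simulated data. No SD, n or p could be given, and the precision of a value beyond rounding is unknown. Gene identifiers and names, but no values, were read from the study's supplementary tables. The members and lists were chosen with earlier results of these data known. Genes were named by a rule: listed genes in or near the rule, the 10 members with the highest Day 15 values, the 10 with the largest decrease to Day 45, the 10 with the largest increase from Day 30 to Day 45 (8 of these had none), the neighbour pairs, and the 3 genes nearest each side of the limit. Others were named after their values were seen. Alternatives covered the pseudocount, 3 rescalings, rounding, the ratio, the Day 15 minimum and the neighbour distance.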

Additional observations from a re-analysis of the deposited data

How the results depend on the processing

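No paired analysis was possible because the deposited columns carry 1 value per stage and no replicate, and for the same reason no replicate could be left out in turn and no fit with a replicate block was run. With a pseudocount of 0.1, the 4 stages at the same sum, quantile normalization, scaling by the median ratio of genes at 5 FPKM or more in all stages, or a Day 15 minimum of 10 FPKM, all 102 members met the rule, which then gave between 103 and 132 genes. With the least favourable rounding of every value, 88 of the 102 did. With a ratio of 4 the rule gave 279 genes, of which 167 were past 8 times lower at Day 37, 237 at Day 45 and 166 at both, with 6.20% of all FPKM at Day 15, in 57 neighbouring genes and 26 clusters. With a ratio of 16 it gave 39 genes, of which 39 were past the limit at Day 37, 39 at Day 45 and 39 at both, with 1.25% of all FPKM, in 4 neighbouring genes and 2 clusters. With a Day 15 minimum of 50 FPKM it gave 61 genes, of which 60 were past the limit at Day 37, 61 at Day 45 and 60 at both. The neighbours were the least stable: 27 genes in 13 clusters with a pseudocount of 0.1, 23 in 11 with the stages at the same sum, 23 in 11 with a Day 15 minimum of 10 FPKM, and 6 in 3 when only genes next to each other counted, against 14 in 7. Low values limit every ratio, since the median of the members was 3 FPKM or less after Day 15.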
